A study of Mus musculus with 12 samples.

Results

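Fatty acid oxidation was followed here through 36 genes, chosen by symbol, that carry fatty acids through the carnitine shuttle and the mitochondrial and peroxisomal rounds of β-oxidation. Each gene was read from its probeset with the highest mean, and 33 of the 36 had a probeset of their own and were tested among 16573 genes. The other 3 were not analysed: the probesets of Acsl3 and Cpt1b are shared with Utp14b and Gm44502, and no probeset carried the symbol Acsl1 in the annotation used. RNA was measured on 12 arrays, with 4 tumors (numbers 1, 2, 4 and 5) in each of 3 groups. All tumors came from J2A cells, an aortic myofibroblast line of mice lacking p16, p19 and Vnn1, transformed with a retroviral vector that carries H-RasV12 fused to GFP and grafted under the skin of female nude mice on a normal diet for 2 to 3 weeks. R cells carry Ras without Vnn1, VR cells carry Ras and intact Vnn1, and VdR cells carry Ras and Vnn1dCr, a catalytically deficient Vnn1. Vnn1 is a pantetheinase, which cleaves pantetheine to cysteamine and pantothenate, the precursor of coenzyme A. Vnn1 is driven by the cytomegalovirus promoter in this single line, and nude hosts lack T cells but keep macrophages and other innate cells.

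Fatty acids are burnt after they are joined to coenzyme A. Long acyl chains cannot cross the inner mitochondrial membrane as such, so carnitine palmitoyltransferases move them onto carnitine, a translocase carries them across, and they return to coenzyme A inside. Each round of β-oxidation then removes acetyl-CoA by dehydrogenation, hydration, a further dehydrogenation and thiolysis, and the electrons of the first step leave through the electron transfer flavoprotein. Peroxisomes run a related pathway for very long and branched chains, with acyl-CoA oxidases in the first step. Entry at Cpt1 is the best known point of control, where malonyl-CoA, made by acetyl-CoA carboxylase, inhibits.

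VR tumors carried more transcript of 13 of the 33 genes and less of 1 than R tumors (limma over all 12 arrays, Benjamini-Hochberg adjusted p below 0.05). Of all genes tested, 13.6% were higher and 7.48% lower in this comparison. The difference was positive for 29 of 33 genes and for 47.0% of all genes. Its median was 0.21 on the log2 scale against -0.01 for all genes. In VdR tumors 6 genes were higher and 1 lower than in R tumors, where 6.58% of all genes were higher and 2.81% lower. The median difference there was 0.16 against 0.00, with 29 of 33 positive against 51.1% of all genes. No gene of the 33 was called between VR and VdR tumors, where 1.77% of all genes were higher and 1.67% lower in VR, with a median difference of 0.05 against -0.02. At this sample size 33 genes uncalled does not show that the groups are alike, and the intervals of single genes are given below. All values are log2 expression, the tumors are given in the order 1, 2, 4 and 5, and errors are SD with n = 4. Where groups are said not to overlap, this describes the values behind the difference and adds no support to a call. The share of all genes without overlap is not given. The shares of all genes called, given above, are the background for every count by step or list below. The VR and VdR comparisons share the R tumors and are therefore not independent of each other.

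**Figure D1:**
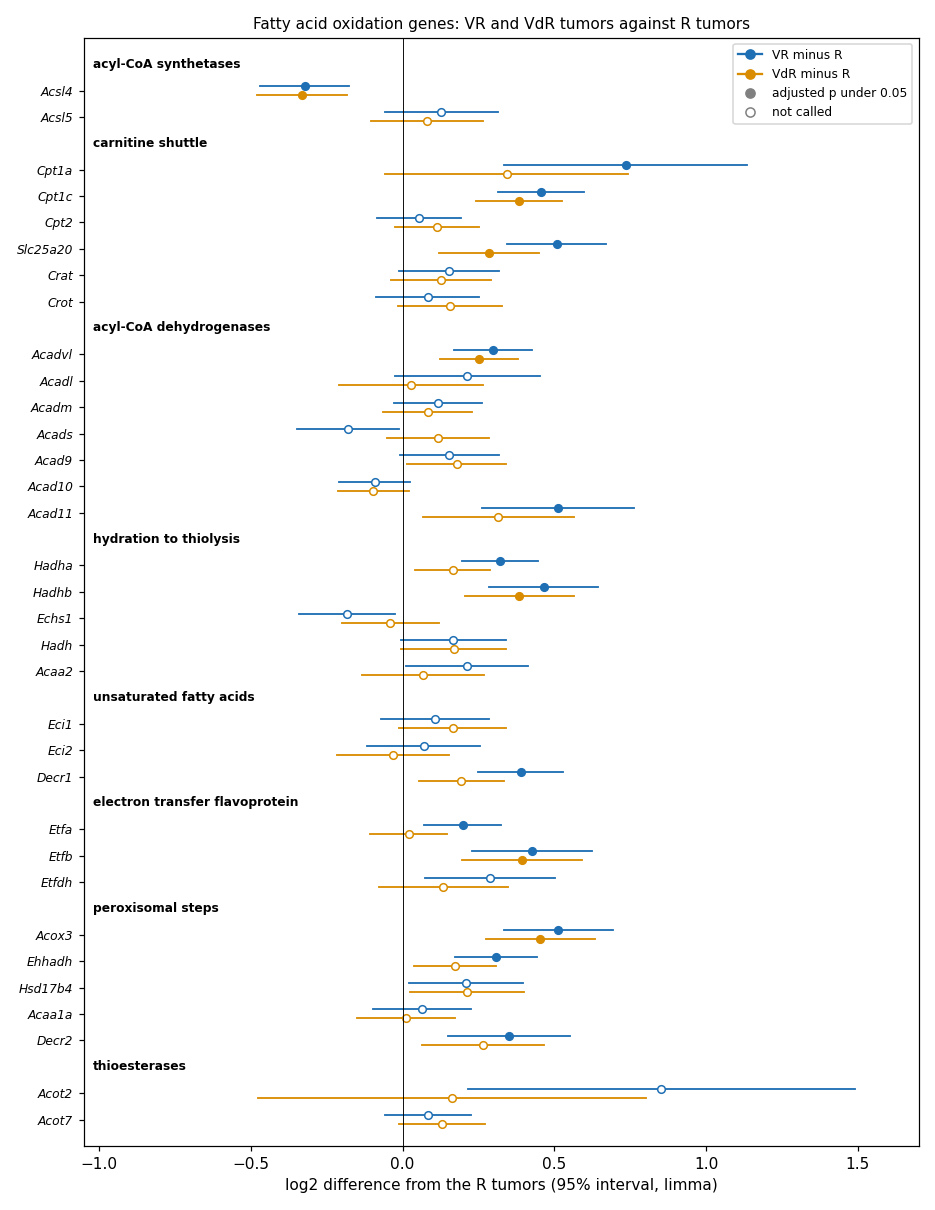
Log2 difference of VR from R tumors (blue) and of VdR from R tumors (orange) for the 33 measured genes, grouped by step, with 95% intervals from limma; filled points have an adjusted p below 0.05. In VR, 13 genes lie right of 0 with filled points and Acsl4 lies left of it; in VdR, 6 and 1 do.

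Promoter sequences are shown for genes that were higher in VR tumors, to place the transcripts on the genome and to look for letters that receptors of fatty acid metabolism read. Windows of 300 bases, 250 before and 50 after the RefSeq start, were available for 30 of the 36 genes (31 windows, build GRCm38.p6), among them 12 of the 13 higher in VR. Both strands were searched for AGGTCA, the element on which many nuclear receptors sit. It was found in 16.3% of all 32851 windows, in 5 of the 31 windows of these genes (16.1%) and in 3 of the 12 windows of genes higher in VR, those of Cpt1a, Cpt1c and Acadvl. They are printed from 5′ to 3′ on the strand of the gene, with the AGGTCA element, or its reverse complement in Cpt1a, in capitals.
Cpt1a, chr19:3323051-3323350, plus strand: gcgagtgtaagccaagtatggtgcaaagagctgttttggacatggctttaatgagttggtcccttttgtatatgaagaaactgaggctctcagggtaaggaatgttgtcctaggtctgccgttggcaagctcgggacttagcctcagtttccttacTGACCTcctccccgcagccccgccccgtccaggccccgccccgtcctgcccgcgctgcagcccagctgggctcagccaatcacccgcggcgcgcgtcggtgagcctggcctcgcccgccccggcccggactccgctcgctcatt
Cpt1c, chr7:44974802-44975101, minus strand: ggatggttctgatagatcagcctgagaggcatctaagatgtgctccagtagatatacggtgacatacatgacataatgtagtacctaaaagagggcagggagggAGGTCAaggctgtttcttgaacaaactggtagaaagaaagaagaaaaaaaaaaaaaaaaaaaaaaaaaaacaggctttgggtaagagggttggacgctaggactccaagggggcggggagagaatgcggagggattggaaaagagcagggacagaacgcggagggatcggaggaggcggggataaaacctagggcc
Acadvl, chr11:70015379-70015678, minus strand: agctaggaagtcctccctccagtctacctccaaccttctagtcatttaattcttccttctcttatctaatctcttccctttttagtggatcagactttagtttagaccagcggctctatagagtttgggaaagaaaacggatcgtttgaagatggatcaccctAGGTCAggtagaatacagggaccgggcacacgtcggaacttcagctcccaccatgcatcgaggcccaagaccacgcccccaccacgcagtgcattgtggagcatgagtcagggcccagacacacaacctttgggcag
The element begins 94 bases before the start of Cpt1a, 146 before that of Cpt1c and 87 before that of Acadvl. AGGTCA repeated after 1 base (the form bound by PPAR with RXR) was in 0 of the 31 windows and in 0.0396% of all windows, and AGGTCA directly preceded by TCA (the estrogen-related receptor form) was in 0 and in 0.423%. Both of these longer forms contain AGGTCA. Only exact copies within the windows were counted. At these rates a count of 0 in 31 windows is likely, so it does not show that such elements are absent. The NRF1 palindrome, GCGCA joined to TGCGC, was in 2 of 31 windows, those of Acad10 and Etfdh, and in 0.971% of all windows. These matches describe letters and no binding was measured.

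Hadha and Hadhb, which encode the α and β subunits of the mitochondrial trifunctional protein, stand head to head on chromosome 5. Hadha runs on the minus and Hadhb on the plus strand, their starts are 273 bases apart, and their windows share 228 bases. The shared stretch is shown because both transcripts were higher in VR tumors, and it is printed on the plus strand with no part marked.
Hadha and Hadhb, chr5:30155003-30155230: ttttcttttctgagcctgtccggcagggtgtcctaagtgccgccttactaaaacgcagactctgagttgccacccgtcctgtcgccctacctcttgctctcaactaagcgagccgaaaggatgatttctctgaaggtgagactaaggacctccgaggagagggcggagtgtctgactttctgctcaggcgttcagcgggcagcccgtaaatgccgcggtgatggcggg
None of the 4 motifs was found in either window of this pair.

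The synthetases, which activate fatty acids with coenzyme A, were the only step with a fall. Acsl4, which prefers arachidonic acid, lay at 11.30, 11.12, 11.27 and 11.24 in R, at 10.82, 10.82, 10.95 and 11.01 in VdR, and at 10.93, 10.99, 10.76 and 10.97 in VR tumors. Every R tumor lay above every VdR and VR tumor. The difference was -0.32 in VR (SE 0.07, adjusted p = 0.0059) and -0.33 in VdR (adjusted p = 0.0089), and VR and VdR differed by 0.01 (95% interval -0.14 to 0.16). Acsl5, another long-chain synthetase, averaged 10.08 ± 0.07 in R, 10.16 ± 0.19 in VdR and 10.21 ± 0.07 in VR and was not called.

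The carnitine shuttle held 3 genes higher in VR tumors out of 6 measured, with a median difference of 0.31 (13.6% of all genes were higher). In VdR tumors it held 2 of 6, with a median of 0.22 (6.58% of all genes). All 6 differences were positive in both comparisons, which share the R tumors, where 47.0% (VR) and 51.1% (VdR) of all genes were positive. Cpt1a, the widely expressed liver form of the outer membrane transferase, was at 10.24, 10.82, 10.04 and 10.65 in R tumors. In VdR tumors it was at 11.05, 11.08, 10.56 and 10.45, and in VR tumors at 11.36, 11.19, 11.21 and 10.95. All VR tumors stood above all R tumors, while VdR tumors 1 and 2 lay inside the VR range and VdR tumors 4 and 5 lay inside the R range. Cpt1a was thus 1.66-fold higher in VR than in R (log2 difference 0.74, SE 0.18, adjusted p = 0.0141), the only called gene of the 33 past 1.5-fold. The VdR difference was 0.34 (95% interval -0.06 to 0.74, adjusted p = 0.297) and the VR to VdR difference 0.39 (-0.01 to 0.79, adjusted p = 0.272).

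Cpt1c, a form known from brain with little transferase activity, was at 9.00, 9.11, 9.07 and 8.96 in R tumors, with VdR tumors at 9.34, 9.48, 9.46 and 9.40 and VR tumors at 9.41, 9.65, 9.51 and 9.39. No VdR or VR tumor overlapped the R tumors, and VdR and VR overlapped each other. The rise was 0.46 in VR (SE 0.07, adjusted p = 0.00067, the lowest of the 33 genes) and 0.38 in VdR (adjusted p = 0.0031). Slc25a20, the carnitine-acylcarnitine translocase, was at 8.59, 8.84, 8.64 and 8.66 in R tumors, with VdR tumors at 9.06, 9.11, 8.82 and 8.88 and VR tumors at 9.19, 9.23, 9.21 and 9.14. It formed steps, with every VR tumor above every VdR tumor and VdR tumor 4 just below the highest R tumor. Its rise was 0.51 in VR (SE 0.08, adjusted p = 0.00086) and 0.29 in VdR (adjusted p = 0.0334), and the VR to VdR difference of 0.22 (95% interval 0.06 to 0.39) had an adjusted p of 0.123. The VdR call of Slc25a20 was lost when 1 of R tumors 1, 4 and 5 or of VdR tumors 1 and 2 was left out (adjusted p 0.0568 to 0.102).

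The remaining shuttle enzymes were not called. Cpt2, which returns acyl chains to coenzyme A at the inner membrane, differed by 0.05 in VR and 0.11 in VdR. Crat, the acetyl-group carnitine transferase, differed by 0.15 and 0.13, and Crot, the peroxisomal octanoyltransferase, by 0.08 and 0.16. Carnitine itself is taken up by Slc22a5, which rose in VR (0.49, adjusted p = 0.0029) and VdR (0.38, adjusted p = 0.0220). Slc22a4, a related carrier that prefers ergothioneine, fell in VR (-0.54, adjusted p = 0.0105). Of the 4 tested genes of carnitine supply, 1 was higher and 1 lower in VR, with a median of 0.07. The genes that set malonyl-CoA were uncalled in all comparisons: against R, Acaca differed by 0.03 in VR, Acacb by -0.08 and Mlycd, the decarboxylase that removes malonyl-CoA, by 0.10.

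**Figure D2:**
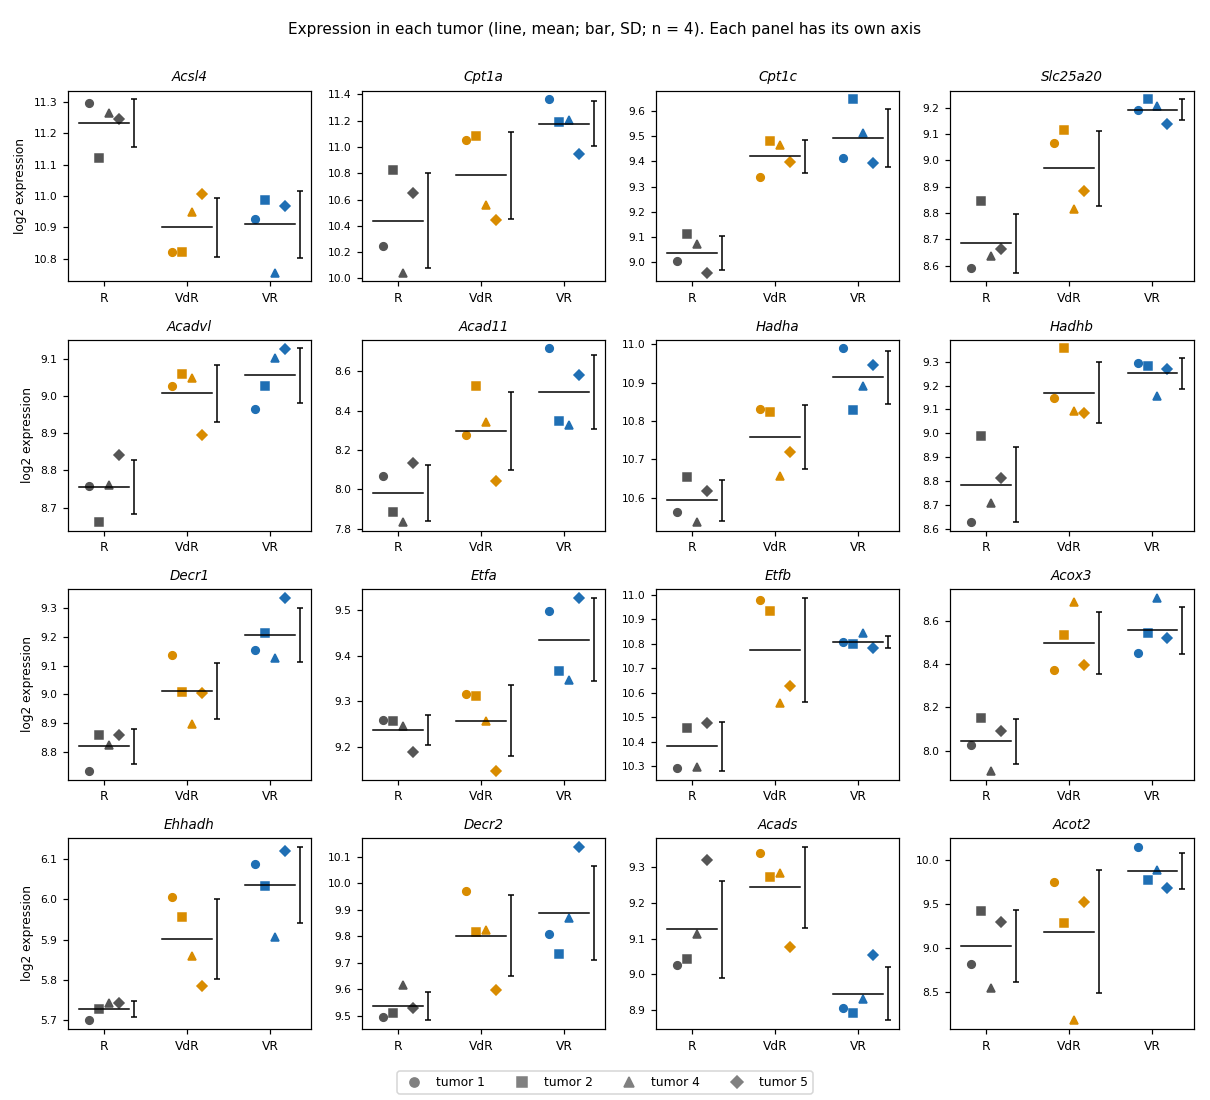
Log2 expression of the 14 genes called in VR or VdR against R, and of Acads and Acot2, in each tumor (marker shape, tumor number; line, mean; bar, SD; n = 4), with a separate axis for each gene. For the 14 called genes, no VR tumor overlaps the R tumors, but the calls rest on these same values, so this adds no support. Cpt1a and Acad11 in VdR tumors spread from the R to the VR range.

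Among the 7 genes grouped here as acyl-CoA dehydrogenases, the enzymes of the first step in mitochondria, 2 were higher in VR and 1 in VdR. Across all genes the shares were 13.6% and 6.58%. Where each protein lies in the cell was not measured. Acadvl, the form for very long chains, was at 8.76, 8.66, 8.76 and 8.84 in R tumors, with VdR tumors at 9.03, 9.06, 9.05 and 8.89 and VR tumors at 8.97, 9.03, 9.10 and 9.13. Neither VdR nor VR tumors overlapped R tumors, and the rises were 0.30 in VR (SE 0.06, adjusted p = 0.0042) and 0.25 in VdR (adjusted p = 0.0188). The VdR call was lost without R tumor 1 (adjusted p = 0.0512) or VdR tumor 2 (0.0596). Acad11, a less studied relative, was at 8.07, 7.88, 7.84 and 8.14 in R tumors, with VdR tumors at 8.28, 8.52, 8.34 and 8.04 and VR tumors at 8.72, 8.35, 8.33 and 8.58. Only the VR tumors were clear of the R range, with a rise of 0.51 (SE 0.11, adjusted p = 0.0080) against 0.31 in VdR (adjusted p = 0.114).

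The other dehydrogenases were not called. Acadl, for long chains, differed by 0.21 in VR and 0.03 in VdR, and Acadm, for medium chains, by 0.12 and 0.08, all uncalled. Acads, for short chains, was at 9.03, 9.04, 9.11 and 9.32 in R tumors, with VdR tumors at 9.34, 9.27, 9.28 and 9.08 and VR tumors at 8.91, 8.89, 8.93 and 9.05. It was the 1 gene of the 33 whose VR tumors all lay below all VdR tumors, by -0.30 (95% interval -0.46 to -0.13), with an adjusted p of 0.0541. Against R it differed by -0.18 in VR (adjusted p = 0.119) and 0.12 in VdR (adjusted p = 0.408). The VR to VdR difference of Acads passed the threshold without R tumor 5 (adjusted p = 0.0302). Acad9, which also serves in the assembly of respiratory complex I, differed by 0.15 and 0.18 and Acad10 by -0.09 and -0.10, again uncalled.

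In the steps from hydration to thiolysis, 2 of 5 genes were higher in VR tumors, against 13.6% of all genes. They were the subunits of the trifunctional protein, which handles long chains. Hadha was at 10.56, 10.66, 10.54 and 10.62 in R tumors, with VdR tumors at 10.83, 10.82, 10.66 and 10.72 and VR tumors at 10.99, 10.83, 10.89 and 10.95. Hadhb was at 8.63, 8.99, 8.71 and 8.81 in R tumors, with VdR tumors at 9.15, 9.36, 9.09 and 9.09 and VR tumors at 9.30, 9.28, 9.16 and 9.27. For both genes every VdR and VR tumor was above every R tumor. In VR the rise was 0.32 for Hadha (SE 0.06, adjusted p = 0.0023) and 0.47 for Hadhb (SE 0.08, adjusted p = 0.0023). In VdR the rise of Hadhb was 0.38 (adjusted p = 0.0120), and Hadha differed by 0.16 (adjusted p = 0.0981). The other genes of these steps were uncalled, and no difference by chain length was tested. Echs1, the short-chain enoyl-CoA hydratase, differed by -0.18 in VR (adjusted p = 0.0972) and -0.04 in VdR. Its VR tumors, at 9.58, 9.51, 9.49 and 9.46, all lay below its R tumors, at 9.59, 9.61, 9.77 and 9.80. Hadh, the hydroxyacyl-CoA dehydrogenase of shorter chains, differed by 0.17 in each comparison, and Acaa2, the mitochondrial thiolase, by 0.21 and 0.07.

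Unsaturated fatty acids need extra enzymes to move or reduce their double bonds. Decr1, the mitochondrial dienoyl-CoA reductase, was at 8.73, 8.86, 8.82 and 8.86 in R tumors, with VdR tumors at 9.14, 9.01, 8.90 and 9.00 and VR tumors at 9.15, 9.21, 9.13 and 9.34. VdR tumors fell between, with only tumor 1 reaching the VR range, and none overlapped the R tumors. The rise in VR was 0.39 (SE 0.06, adjusted p = 0.0016) and the VdR difference was 0.19 (adjusted p = 0.0853). The isomerases Eci1 and Eci2 differed by 0.11 and 0.07 in VR and by 0.17 and -0.03 in VdR, and neither was called.

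The electron transfer flavoprotein accepts the electrons of the acyl-CoA dehydrogenases and hands them to Etfdh, the ubiquinone oxidoreductase. Its β subunit, Etfb, was at 10.29, 10.46, 10.30 and 10.48 in R tumors, with VdR tumors at 10.98, 10.94, 10.56 and 10.63 and VR tumors at 10.81, 10.80, 10.84 and 10.78. The VR tumors were tightly grouped (SD 0.03) inside the wide VdR range, and both groups were clear of R, with rises of 0.43 in VR (SE 0.09, adjusted p = 0.0064) and 0.39 in VdR (adjusted p = 0.0175). The VdR call of Etfb was lost without R tumor 1, R tumor 4 or VdR tumor 2 (adjusted p 0.0573 to 0.0593). Its α subunit, Etfa, was at 9.26, 9.26, 9.25 and 9.19 in R tumors, with VdR tumors at 9.32, 9.31, 9.26 and 9.15 and VR tumors at 9.50, 9.37, 9.35 and 9.53. Etfa therefore stood apart in VR alone on these values, and its rise was the smallest called, 0.20 (SE 0.06, adjusted p = 0.0305). This call was lost when any of R tumors 1, 4 and 5 or VR tumors 1 and 5 was left out (adjusted p 0.0578 to 0.0832). The VdR difference of Etfa was 0.02 (95% interval -0.11 to 0.15), and the VR to VdR difference, 0.18, had an adjusted p of 0.112. Etfdh averaged 8.81 ± 0.17 in R, 8.95 ± 0.19 in VdR and 9.10 ± 0.04 in VR, a VR difference of 0.29 that was not called (adjusted p = 0.0546). It passed the threshold without R tumor 5, VdR tumor 2 or VdR tumor 4 (adjusted p 0.0289 to 0.0413).

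Across the 18 genes from dehydrogenases to Etfdh, grouped here as mitochondrial, 7 were higher in VR and 3 in VdR, with medians of 0.21 and 0.15. The grouping follows the step, and a gene such as Acad11 or Eci2 could be placed otherwise, which would shift these counts. For the 5 peroxisomal genes the counts were 3 and 1, with medians of 0.31 and 0.21. Of all genes tested, 13.6% were higher in VR and 6.58% in VdR, with medians of -0.01 and 0.00. No difference between the mitochondrial and peroxisomal genes was tested. Acox3, the oxidase of branched-chain acyl-CoA, was at 8.03, 8.15, 7.91 and 8.09 in R tumors, with VdR tumors at 8.37, 8.54, 8.69 and 8.40 and VR tumors at 8.45, 8.55, 8.71 and 8.52. Its VdR and VR tumors overlapped each other above R, and the rises were 0.51 in VR (SE 0.08, adjusted p = 0.0013) and 0.45 in VdR (adjusted p = 0.0048). Ehhadh, the L-bifunctional enzyme, was low on these arrays, at 5.70, 5.73, 5.74 and 5.74 in R tumors, 6.01, 5.95, 5.86 and 5.78 for VdR tumors and 6.09, 6.03, 5.91 and 6.12 for VR tumors. These values are close to the expression filter of 5.38, yet no VdR or VR tumor fell within the narrow R range. Ehhadh rose by 0.31 in VR (SE 0.06, adjusted p = 0.0045), and its VdR difference was 0.17 (adjusted p = 0.106).

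Decr2, the peroxisomal dienoyl-CoA reductase, was at 9.49, 9.51, 9.61 and 9.53 in R tumors, with VdR tumors at 9.97, 9.82, 9.82 and 9.60 and VR tumors at 9.81, 9.73, 9.87 and 10.14. VR tumors were all above R tumors and VdR tumor 5 was not. Its rise in VR was 0.35 (SE 0.09, adjusted p = 0.0177) and its VdR difference was 0.27 (adjusted p = 0.0975). Hsd17b4, the D-bifunctional enzyme, differed by 0.21 in each comparison, and Acaa1a, a peroxisomal thiolase, by 0.06 and 0.01, all uncalled. Acaa1a has a close copy, Acaa1b, which differed by 0.09 in VR, and probes can be shared between such copies.

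Outside the 36 genes, 7 of 18 other tested peroxisomal genes were higher in VR and 0 lower, with a median of 0.14, and 3 were higher in VdR. Across all genes, 13.6% were higher and 7.48% lower in VR, and 6.58% were higher in VdR. Acot6 rose by 0.37 (adjusted p = 0.0026), Nudt7, a hydrolase of coenzyme A in peroxisomes, by 0.34 (adjusted p = 0.0041) and Phyh, which starts the α-oxidation of phytanic acid, by 0.51 (adjusted p = 0.0049). Nudt7 was the 1 gene of this list also higher in VR than in VdR (0.28, adjusted p = 0.0447).

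The thioesterases release fatty acids from coenzyme A. Acot2, the mitochondrial form, varied most within groups among the 33 genes, at 8.82, 9.42, 8.54 and 9.30 in R tumors, with VdR tumors at 9.75, 9.27, 8.17 and 9.52 and VR tumors at 10.15, 9.77, 9.88 and 9.68. Every VR tumor was above every R tumor, but the difference of 0.85 (SE 0.29) had an adjusted p of 0.0577. It passed the threshold when R tumor 2, VdR tumor 1 or VdR tumor 4 was left out (adjusted p 0.0079 to 0.0485). Acot1, a close copy of Acot2, differed by -0.17 in VR (adjusted p = 0.378), and shared probes cannot be told apart here. Acot7, a cytosolic form abundant in brain, differed by 0.08 in VR and 0.13 in VdR.

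The VdR mean lay between the R and VR means for 22 of the 33 genes, above both for 8 and below both for 3. Of the 13 genes higher in VR all had a VdR mean between the others. It had covered 9.98% of the way from R to VR for Etfa, 46.7% for Cpt1a, 49.8% for Decr1 and 51.4% for Hadha, against 92.3% for Etfb, 88.6% for Acox3 and 84.4% for Cpt1c. These shares compare means only, and for none of these genes was the VR to VdR difference called. The 13 genes were chosen for a VR mean above the R mean, and this choice by itself favors a VdR mean between the others. Counts of this kind over all genes are not given, so those above are not read as a graded effect. Whether Vnn1dCr acts in part was not tested.

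Within the R and VdR groups, the highest and lowest values of the genes fell mostly in the same tumors. The same counts over all genes are not given, so this is not read as particular to these genes. Of the R tumors, tumor 5 had the highest value for 15 of 33 genes and tumor 2 for 11, while tumor 1 had the lowest for 14 and tumor 4 for 11. Of the VdR tumors, 1 and 2 were highest for 14 and 12 genes, and 4 and 5 lowest for 15 and 13. In VR tumors the highest values were spread over tumors 1, 2, 4 and 5 (10, 7, 6 and 10 genes). R, VdR and VR tumors had a median SD of 0.10, 0.12 and 0.09 over the 33 genes and of 0.10, 0.11 and 0.09 over all genes.

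The paper describes total tumor extracts, which hold host cells, whereas the labels' extraction text speaks of sorted cells, and this was not resolved. With bulk RNA, a change in the number of cells of a type and a change in RNA per cell cannot be told apart. Macrophage markers moved with the groups. Across all genes, 13.6% were higher in VR and 6.58% in VdR than in R. Of these markers, 14 of 18 were higher in VR and 17 of 18 in VdR, and none differed between VR and VdR. All 18 were above the filter, and their summed linear level ranged from 17113 to 22091 in R, from 35109 to 42561 in VdR and from 32659 to 35184 in VR tumors. Because this level does not overlap between R and the others, macrophage content and Vnn1 group cannot be told apart. With the mean log2 macrophage level as a covariate, 0 of the 33 genes were called in any comparison, and over all genes VR had 5 above and 59 below R. In that model the Cpt1a difference of VR from R was -0.47 (SE 0.52, adjusted p = 0.794), while those of Decr1 and Decr2 were 0.47 and 0.53 (adjusted p = 0.600 and 0.647). Endothelial markers were higher for 2 of 7 in VR, at a mean log2 level of 9.42 to 9.77 against 8.88 to 9.53 in R, and a model with that level as a covariate, chosen after the values were seen, called 7 of the 33 genes higher and 0 lower in VR. In that model the median difference over the 33 genes was 0.23 against 0.21 without it, errors widened, and 5.7% of all genes were higher. Cpt1a differed by 0.78 (SE 0.25, adjusted p = 0.0738) against 0.74 (SE 0.18) and lost its call. Acsl4, Acadvl, Acad11, Etfa, Etfb and Decr2 also lost theirs (adjusted p 0.0508 to 0.245). The endothelial level partly follows the groups, so this model cannot separate endothelial content from Vnn1 group. Myofibroblast markers, which the grafted line should carry, were all above the filter and 5 of 9 were higher in VR than in R. In VdR 0 of 9 were called against R, and 1 of 9 was higher in VR than in VdR.

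**Figure D3:**
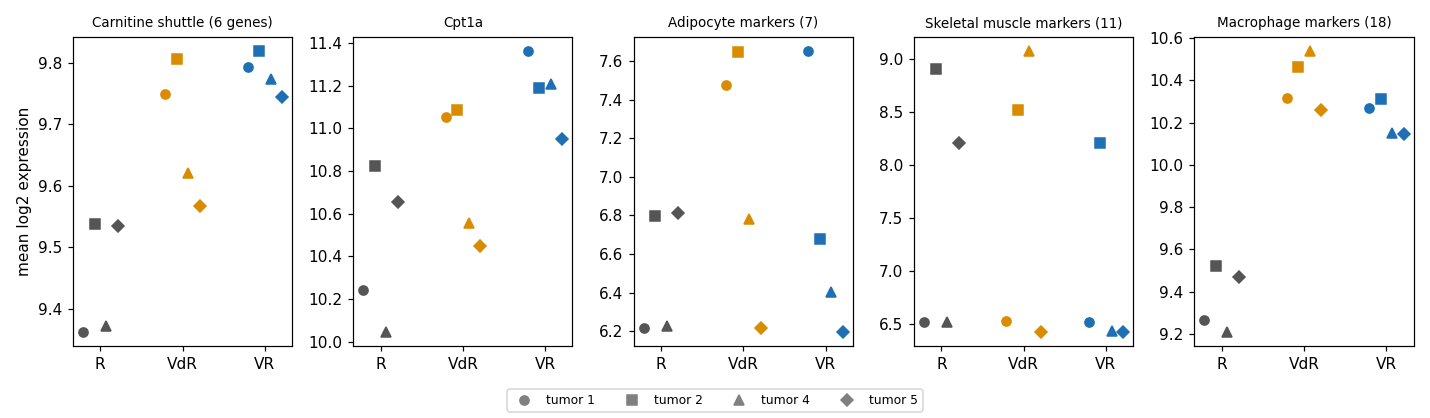
Mean log2 expression of the 6 carnitine shuttle genes, of Cpt1a and of adipocyte, skeletal muscle and macrophage markers (number of genes in brackets) in each tumor, by group and tumor number. Macrophage markers run from 9.21 to 9.52 in R and from 10.14 to 10.54 elsewhere, and adipocyte and muscle markers differ between tumors of the same group.

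Adipocyte and muscle markers varied between tumors of a group. The mean log2 level of 7 adipocyte markers was 6.22, 6.79, 6.23 and 6.81 in R tumors, 7.48, 7.65, 6.78 and 6.22 for VdR tumors and 7.65, 6.68, 6.40 and 6.20 for VR tumors, and none of the 7 was called. The 2 highest Cpt1a tumors in R (2 and 5) and in VdR (1 and 2) were those with the highest adipocyte levels, and so was VR tumor 1. R tumors 2 and 5 also had the highest levels in R of skeletal muscle markers (8.90 and 8.21) and macrophage markers (9.52 and 9.47). In VdR both of these levels were highest in tumors 4 and 2, and in VR in tumor 2. The match was seen after the fact, and the source of Cpt1a was not tested. With the adipocyte level as a covariate, a model chosen after the values were seen, Cpt1a was higher in VR than in R by 0.64 (SE 0.11, adjusted p = 0.0033) and higher in VR than in VdR by 0.52 (adjusted p = 0.0418). All 13 genes called higher and the 1 called lower in VR kept these calls, and 3 of the 6 higher in VdR remained. Of 4 brown adipocyte markers, Cidea and Elovl3 were below the filter.

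Skeletal muscle markers were above a mean log2 level of 8 in R tumors 2 and 5, VdR tumors 2 and 4 and VR tumor 2 (8.20 to 9.07) and at most 6.53 in the other 7 tumors, and none of 11 was called. Without these 5 tumors, which leaves 2 R, 2 VdR and 3 VR tumors, VR tumors had 14 genes above R and 1 below, 10 of the 14 among the 13 above. Etfa, Ehhadh and Decr2 were then not called (adjusted p 0.0594 to 0.127), whereas Acot2, Etfdh, Hadh and Acad9 were. The Cpt1a difference became 1.03 (adjusted p = 0.0119) and that of Acot2 became 1.23 (adjusted p = 0.0029). These models were likewise chosen after the values were seen, and the part of fat or muscle tissue in the differences was not tested beyond them.

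Other mitochondrial and lipid genes give the surroundings of these values. In VR against R, 0 of 11 citric acid cycle genes were higher and 1, Suclg2, was lower (-0.32, adjusted p = 0.0166), with a median of -0.02. Of 21 respiratory chain genes, 1 was higher (Atp5o, 0.18, adjusted p = 0.0431) and 1 lower (Uqcrfs1, -0.37, adjusted p = 0.0091), with a median of 0.02. Of 10 genes of mitochondrial import, channels and chaperones, 0 were higher and 2 lower (Vdac2, -0.37, adjusted p = 0.0051, and Tomm20, -0.27, adjusted p = 0.0162), with a median of -0.10. At the 13.6% of all genes, lists of this size would hold few calls, so these counts are not read as a difference from the other genes.

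The breakdown of branched-chain and odd-chain acyl-CoA, which feeds the citric acid cycle, had 4 of 9 genes higher in VR, against 13.6% of all genes. The median was 0.15, and the 4 were Mcee (0.55, adjusted p = 0.0034), Acadsb (0.27, adjusted p = 0.0154), Pcca (0.29, adjusted p = 0.0198) and Pccb. Of 3 ketone body genes, Acat1 rose by 0.42 (adjusted p = 0.0066) and the median was -0.02. In the opposite pathway, fatty acid synthesis, 1 of 9 genes was higher (Me1, malic enzyme, 0.38, adjusted p = 0.0093) and 2 lower, the desaturases Scd2 (-0.30, adjusted p = 0.0080) and Scd1 (-0.36, adjusted p = 0.0161), with a median of -0.14.

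Of 15 other synthetases and thioesterases, 1 was higher in VR (Acss1, which activates acetate in mitochondria, 0.59, adjusted p = 0.0095), with a median of 0.03. Of 9 regulators, Ncoa1 rose by 0.40 (adjusted p = 0.0121). Ppargc1a, which coactivates mitochondrial transcription and lay near the filter at 5.62 in R and 5.38 in VR, fell by 0.24 (adjusted p = 0.0312). The median of the regulators was -0.08. The receptors of this list were not called in VR: Ppara, the fatty acid receptor best known from liver, differed by -0.10 (adjusted p = 0.181).

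**Figure D4:**
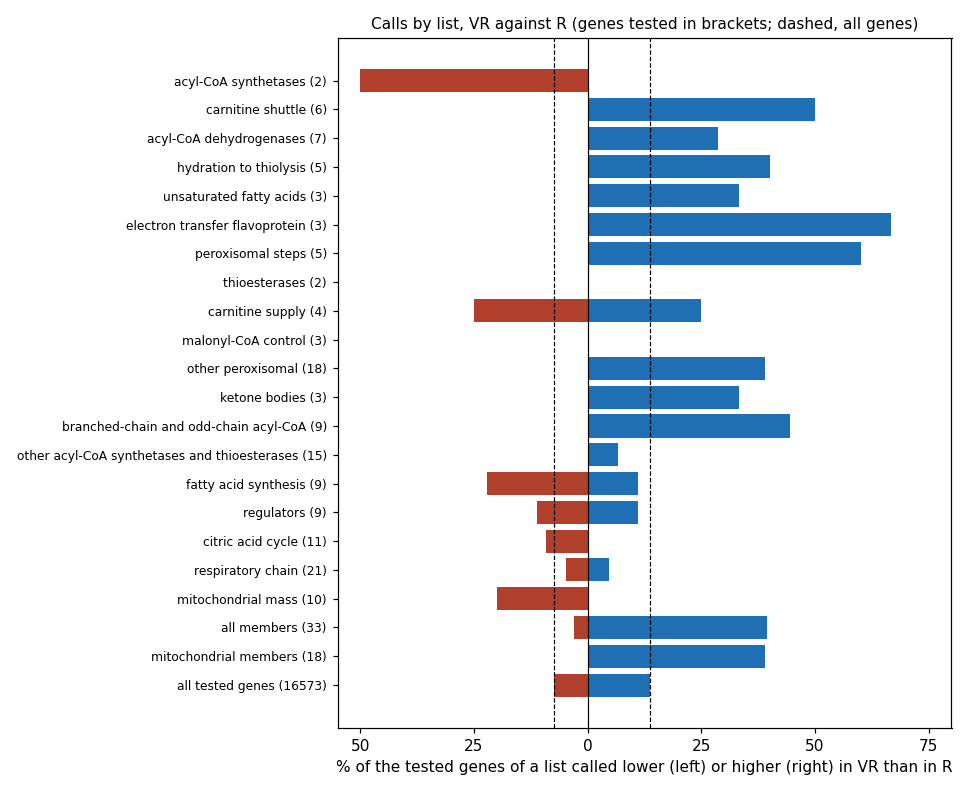
Share of the tested genes of each list (number in brackets) called higher (blue, to the right) or lower (red, to the left) in VR than in R tumors, with dashed lines at the shares for all genes, 13.6% and 7.48%. The rows for all and for mitochondrial members pool the steps above them. Most steps of fatty acid oxidation lie beyond the right line; lists of 2 or 3 genes move in large steps, and no difference between lists was tested.

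Vnn1 served as a check of the labels: its mean was 5.70 ± 0.13 in R tumors, 11.56 ± 0.16 in VdR tumors and 10.87 ± 0.34 in VR tumors, and it was lower in VR than in VdR (-0.69, adjusted p = 0.0292).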

How the data were processed

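RNA of 12 J2A tumors was hybridised to Affymetrix mouse gene arrays. The deposited log2 values per probeset were made by the authors with RMA in the oligo package (versions not given in the sources used here), so background correction, quantile normalization and summarization preceded this work, and an overall change in RNA content is not visible. The study's account of its results speaks of RNA from total tumor extracts, whereas the extraction text of the labels speaks of sorted cells. Tumors of a group are separate grafts of cells for which no separate transduction is described, so p-values measure the spread between grafts. No batch was given.

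Of 35556 probesets, 21789 had 1 symbol, 1621 several and 12146 none (platform annotation, symbols can be old), and only those with 1 symbol were used. The probeset with the highest mean stood for a gene, and a gene entered the test if 4 or more arrays exceeded 5.38, the 25th percentile of all values. A single limma model (version 3.58.1 under R 4.3.3, functions lmFit and eBayes) gave each group a coefficient and used the 12 arrays together, with Benjamini-Hochberg adjustment over 16573 genes at a threshold of 0.05. Intervals are 95% and unadjusted. On simulated data for VR against R with 16573 genes, 13 of 50 genes changed 1.2-fold were called. So were 41 of 50 changed 1.4-fold and 45 of 50 changed 1.5-fold, with 9 false calls among 156. The simulation changed a far smaller share of genes than was called in the data, 13.6% higher and 7.48% lower. It drew noise independently for each gene, so its rates of calling need not hold for this comparison. Within groups, arrays correlated across genes at 0.988 to 0.996, and the number of arrays limits the precision.

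The genes, the other lists and the tests were chosen with earlier results of these data known, and the lists come from textbook knowledge. The text gives every gene of the set by step, each tumor's value for called genes, and of other lists at most the 3 genes with the lowest adjusted p in VR against R and the malonyl-CoA genes. Acads, Acot2, Echs1 (its tumor values), Nudt7 against VdR, Acot1, Acaa1b and the fourth branched-chain gene were added after their values were seen. Promoters come from RefSeq (GRCm38.p6). No protein sequence was used here. Alternatives were other filters, probeset means, trended or robust moderation, array weights, cyclic loess, median centring, a replicate block, only the groups compared, each tumor left out, a 1.5-fold minimum, the methods' t-test (named there for qRT-PCR) and marker covariates.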

Additional observations from a re-analysis of the deposited data

Results flagged for a closer look

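Of 99 sets of 4 tumors (33 genes in 3 groups), 1 had a tumor far from the others by Dixon's gap test. Eci2, an isomerase of unsaturated fatty acids, was at 9.24 in VR tumor 5, while the other VR tumors lay between 9.33 and 9.34. The distance itself is small, and it was flagged because those 3 tumors were nearly equal. Chance flags about 1 in 20 such sets, and 1.01% were flagged here. No difference between the VR and VdR effects was called for any of the 33 genes.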

How the results depend on the processing

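Every called difference from R kept its sign under every alternative except 4 under the macrophage covariate, where Cpt1a (-0.47) and Hadhb (-0.063) in VR and Hadhb (-0.25) and Acox3 (-0.16) in VdR turned. The cause was not tested, and that level does not overlap between R and the other groups. There 0 genes were higher and 0 lower in VR or VdR. Against 13 higher in VR, array weights called 20, the methods' t-test 10 (without Cpt1a, Etfa and Decr2), the 1.5-fold minimum 1 and the endothelial covariate 7. The endothelial model had larger errors and a median difference of 0.23 against 0.21. Against 1 lower in VR, cyclic loess called 2, and the 1.5-fold minimum and the endothelial covariate 0. Against 6 higher in VdR, array weights called 10, the adipocyte covariate 3, the methods' t-test 1 and the 1.5-fold minimum 0. The 1 lower in VdR became 0 with the 1.5-fold minimum, with the methods' t-test and without the tumors high in muscle markers. Between VR and VdR, where limma called none, 1 gene (Acads) was lower in VR with the stricter filter, array weights and cyclic loess, and 1 (Cpt1a) was higher with the adipocyte covariate.

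Leaving out 1 tumor gave 12 to 15 higher and 1 lower in VR, 3 to 8 higher and 1 lower in VdR (3 without R tumor 1 and without VdR tumor 2), and 0 higher and 0 to 1 lower in VR than in VdR. The labels give no meaning to the tumor numbers. Same-numbered pairs correlated at -0.15 to 0.40, with 8 of 12 over 0.1 against 11 of 36 differently numbered pairs. The pairs of tumors numbered 2 correlated at 0.36, 0.40 and 0.23, and 4 of 12 tumors correlated best with their own number. These values do not settle whether the numbers pair the samples, and the main model left the numbers out. With the replicate block, 15 genes were higher (also Etfdh, adjusted p = 0.0124, and Acot2, 0.0365) and 1 lower in VR, 6 higher and 1 lower in VdR, and 0 differed between VR and VdR. In the simulation, which changed a far smaller share of genes than was called in the data, only 13 of 50 genes changed 1.2-fold were called. Its rate need not hold here, and small uncalled differences stay undecided. Etfdh was also called in VR with the stricter filter, array weights, only the groups compared and the muscle covariate (adjusted p 0.0106 to 0.0481).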
